A study of Mus musculus with 28 samples.

Results

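The genes described here encode the part of the extracellular matrix that is not collagen: elastic fibres and their microfibrils, fibulins, latent TGF-beta binding proteins, lysyl oxidases, matrix glycoproteins, small leucine-rich and hyaluronan-binding proteoglycans, and the enhancers of procollagen C-proteinase. A list of 43 such genes was matched by symbol to the probe annotation of the array, and where a gene had several probe sets, the one with the highest mean signal stands for it. Of the 43 genes, 40 had a probe set that the annotation assigns to them alone, and all 40 passed the signal filter and were tested among 12211 genes. The annotation names no probe set for the fibrillin gene Fbn1 or the fibulin-4 gene Efemp2, and the lysyl oxidase-like gene Loxl2 shares its probe set with another gene. These 3 genes have no value here.

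The cells were mouse embryonic fibroblasts (MEFs), measured on 28 single-channel arrays at day 21. In the names of the factor combinations G is GATA4, M is MEF2C, T is TBX5, N is NKX2.5, H is Hand2 and D is MYOCD, and the arrays numbered 5 for GMT, 6 for NGMT, 4 each for DMT and DMNT, and 3 each for HGMT and HNGMT. These cells carried the factors on doxycycline-inducible (tetO) lentiviruses, with an rtTA lentivirus and the TroponinT-GCaMP5-Zeo reporter lentivirus, and were kept in 2 μg/mL doxycycline. They were selected for 7 days in 300 μg/mL zeocin, to which the troponin T reporter confers resistance, so the arrays describe cells with an active reporter and not all cells that received the factors. The remaining 3 arrays (0F) were of MEFs without factors, which the protocol describes as non-transduced and collected on the same day, although the source label calls all 28 samples zeocin-selected. By the titles and protocol, a comparison with 0F therefore covers the viruses, the drug treatments and the selection as well as the factors. The labels call the samples independent biological replicates, and the number of arrays limits the precision.

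In connective tissue, elastin is laid down on microfibrils of fibrillin and associated glycoproteins, guided by fibulins, and is then cross-linked by lysyl oxidases. Latent TGF-beta binding proteins hold the growth factor in that network. Small leucine-rich proteoglycans bind collagen fibrils and set their diameter and spacing, and glycoproteins such as periostin, fibronectin and the thrombospondins link fibres to each other and to cells. Fibroblasts make much of this material in the heart and in most other organs.

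The arrays fell into 3 sets of nearly equal value distribution, which were rebuilt from the values because the labels do not name them. Set 1 held all 0F arrays, GMT replicates 1 and 2 and NGMT replicates 1 to 3, with array medians of log2 signal of 6.68 to 6.75. Set 2 held GMT replicates 3 to 5, NGMT replicates 4 to 6, DMT replicates 1 to 3 and all HGMT and HNGMT arrays (6.86 to 6.95), and set 3 held DMT replicate 4 and all DMNT arrays (7.64 to 7.65). Groups were compared within a set unless stated otherwise. Values are log2 signal, differences are on the log2 scale with their standard error (limma, all 28 arrays fitted together), and "rose" and "fell" are used for a Benjamini-Hochberg adjusted p under 0.05. Of the 8 fibroblast markers examined (among them Thy1, Pdgfra and Col1a1), all 8 lay above the array median on every array of every group, those of selected cells included.

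Against non-transduced MEFs, elastin, most measured microfibril genes and the small leucine-rich proteoglycans were lower in GMT and NGMT cells, while lysyl oxidase-like 3 and 4, fibulins 1 and 3, latent TGF-beta binding protein 1 and versican were higher. In GMT cells 23 of the 40 members fell and 10 rose, where 22.3% of all genes tested fell and 34.2% rose. In NGMT cells 21 members fell and 13 rose, against 23.3% and 34.9% of all genes. The median member difference was -0.27 in GMT and -0.21 in NGMT cells, beside 0.05 and 0.04 over all genes tested. Changes of at least 2-fold were seen for 18 members in GMT and 17 in NGMT cells. The share of all genes that changed as far is not given here, so these counts are a description only. Both comparisons use the same 3 arrays of 0F cells, so they are given side by side and do not support each other.

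**Figure D1:**
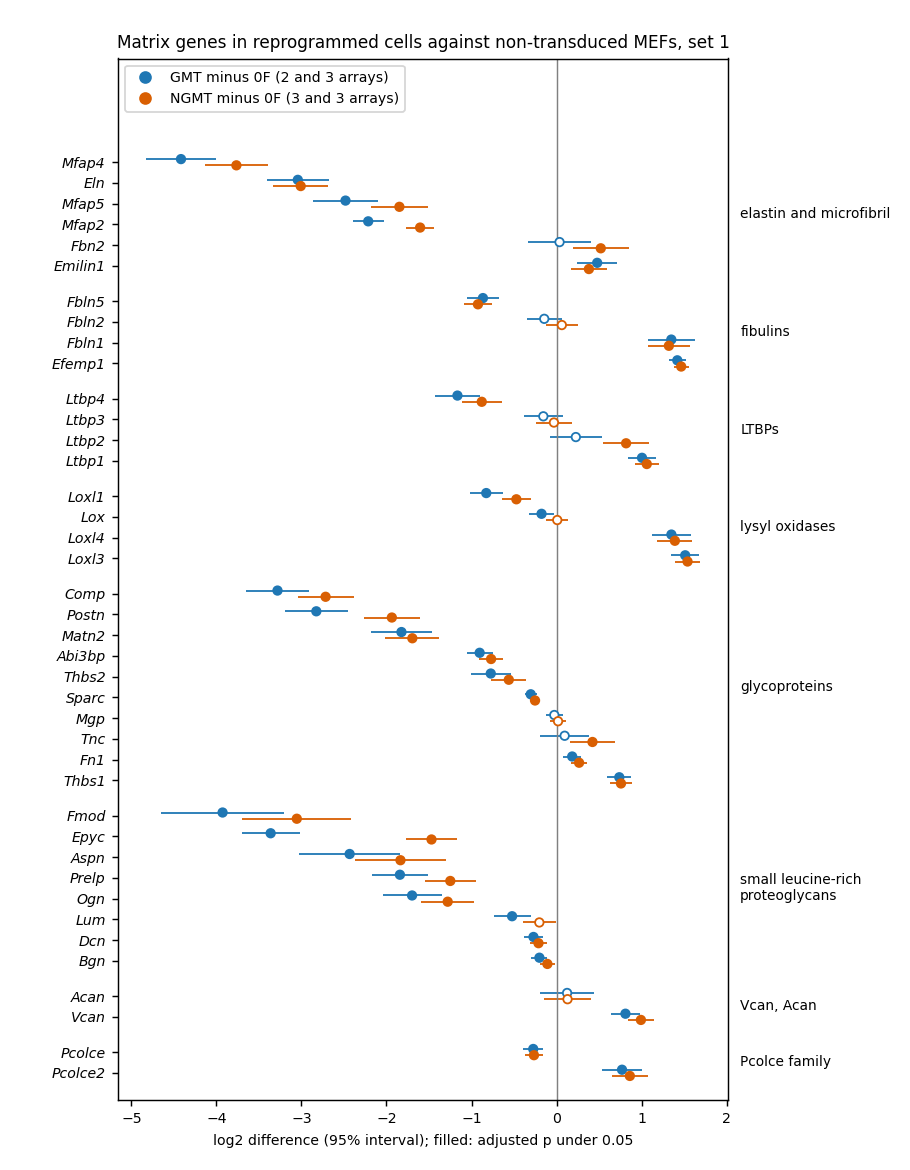
Log2 difference from non-transduced MEFs of the 40 measured matrix genes, grouped by role, for GMT (blue) and NGMT (orange) cells of set 1. Bars are 95% intervals and filled points passed an adjusted p of 0.05; Mfap4 lies furthest to the left at -4.42 in GMT and Loxl3 furthest to the right, at 1.51 in GMT and 1.54 in NGMT.

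Elastin, Eln, the core of the elastic fibre, gave log2 signals of 10.57, 10.50 and 10.32 on the 0F arrays, 7.51 and 7.34 on the GMT arrays and 7.58, 7.46 and 7.33 on the NGMT arrays. All 5 arrays with factors lay far below all 3 without. Eln was 8.24-fold lower in GMT (-3.04 ± 0.18, adjusted p = 3.91e-13) and 8.05-fold lower in NGMT cells (-3.01 ± 0.16, adjusted p = 5.27e-14). Mfap4, a microfibril-associated glycoprotein that binds elastin and collagen, stood at 12.06, 12.03 and 12.02 in 0F, at 7.50 and 7.73 in GMT and at 8.46, 8.35 and 8.00 in NGMT cells. This was the largest fall among the members, 21.4-fold in GMT (-4.42 ± 0.20, adjusted p = 3.65e-15) and 13.6-fold in NGMT cells (-3.77 ± 0.18, adjusted p = 7.55e-15).

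The other microfibril genes did not all follow. Mfap5 (-2.48 ± 0.18 in GMT, -1.85 ± 0.16 in NGMT) and Mfap2 (-2.22 ± 0.09 and -1.60 ± 0.08), which encode the microfibril-associated glycoproteins MAGP-2 and MAGP-1, both fell. Emilin1, which lies at the interface of elastin and microfibrils, rose by 0.48 ± 0.11 and 0.38 ± 0.10. Fbn2, the fibrillin prominent in embryonic microfibrils, had overlapping arrays: 8.39, 8.35 and 8.43 in 0F, 8.50 and 8.36 in GMT and 8.98, 9.34 and 8.43 in NGMT cells. Its difference was 0.04 ± 0.18 in GMT (adjusted p = 0.891), and its rise of 0.52 ± 0.16 in NGMT cells (adjusted p = 0.00744) became 0.31 (adjusted p = 0.0931) without NGMT replicate 2.

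The fibulins went in different directions. Efemp1, which encodes fibulin-3, gave 11.17, 11.09 and 11.15 on the 0F arrays, 12.57 and 12.54 on the GMT arrays and 12.62, 12.55 and 12.63 on the NGMT arrays. The arrays with and without factors lay far apart compared with the spread inside each group, and the rise was 1.42 ± 0.05 in GMT (adjusted p = 1.02e-17) and 1.47 ± 0.04 in NGMT cells (adjusted p = 5.77e-19). Fbln1, a fibulin of basement membranes and elastic fibres, rose by 1.35 ± 0.13 and 1.32 ± 0.12. Fbln5, which brings elastin and its cross-linking enzymes to microfibrils, fell by 0.87 ± 0.09 in GMT and by 0.92 ± 0.08 in NGMT cells. Fbln2 gave -0.14 ± 0.10 (adjusted p = 0.233) and 0.06 ± 0.09 (adjusted p = 0.581).

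The latent TGF-beta binding proteins and the lysyl oxidases also split. Ltbp1, a carrier of latent TGF-beta in the matrix, rose by 1.01 ± 0.08 in GMT and 1.06 ± 0.07 in NGMT cells. Ltbp4, which takes part in elastic fibre assembly, fell by 1.17 ± 0.13 and 0.88 ± 0.11. Ltbp2, which binds fibulin-5 and microfibrils, gave 0.23 ± 0.15 (adjusted p = 0.198) in GMT and rose by 0.82 ± 0.13 in NGMT cells, and Ltbp3 passed in neither (-0.16 ± 0.11 and -0.03 ± 0.10).

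Among the cross-linking enzymes, Loxl3 stood at 9.20, 9.14 and 9.03 in 0F, at 10.64 on both GMT arrays and at 10.68, 10.85 and 10.47 in NGMT cells. It rose by 1.51 ± 0.08 (adjusted p = 9.28e-14) and 1.54 ± 0.07 (adjusted p = 7.12e-15), the largest rise of any member in either comparison. Loxl4 rose by 1.35 ± 0.11 and 1.39 ± 0.10 from 6.51 to 6.64 on the 0F arrays, which lies below their array medians. Without a detection call in the file, a signal that low cannot be told from background, and the size of this rise is not exact. Loxl1, the family member most closely tied to elastin, fell by 0.83 ± 0.09 in GMT and by 0.47 ± 0.08 in NGMT cells. For Lox itself the fall of 0.18 ± 0.07 in GMT cells (adjusted p = 0.0387) was lost with either GMT replicate 2 or any 1 of the 0F arrays left out (adjusted p up to 0.272), and NGMT cells gave 0.01 ± 0.06.

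All 8 small leucine-rich proteoglycans fell in GMT cells, with a median of -1.77, and 7 of 8 fell in NGMT cells, with a median of -1.26. Fibromodulin, Fmod, which binds collagen fibrils, gave 11.91, 11.82 and 12.00 in 0F, 8.21 and 7.75 in GMT and 9.43, 8.81 and 8.32 in NGMT cells, a difference of -3.93 ± 0.35 (adjusted p = 8.42e-10) and -3.06 ± 0.31 (adjusted p = 8.7e-09). Epiphycan, Epyc, a proteoglycan best known from growth plate cartilage, stood at 11.30, 11.34 and 11.34 in 0F, 8.07 and 7.86 in GMT and 9.87, 9.91 and 9.79 in NGMT cells. Its NGMT arrays lay between the other groups with no overlap, and it fell by 3.36 ± 0.16 in GMT (adjusted p = 1.72e-14) and by 1.47 ± 0.15 in NGMT cells (adjusted p = 6.54e-09).

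The remaining members of this family fell by different amounts. Asporin, Aspn (-2.43 ± 0.29 and -1.84 ± 0.26), Prelp (-1.84 ± 0.16 and -1.25 ± 0.14) and osteoglycin, Ogn (-1.70 ± 0.17 and -1.28 ± 0.15), fell by at least 2-fold in both. Lumican, Lum, fell by 0.52 ± 0.10 in GMT cells and gave -0.20 ± 0.09 (adjusted p = 0.0686) in NGMT cells. Decorin, Dcn (-0.27 ± 0.05 and -0.21 ± 0.05), and biglycan, Bgn (-0.20 ± 0.05 and -0.11 ± 0.04), fell by 1.21-fold and 1.15-fold in GMT and 1.16-fold and 1.08-fold in NGMT cells, and the call of Bgn in NGMT cells was lost without 0F replicate 1 or 2 or NGMT replicate 3 (adjusted p = 0.0504 to 0.137). In RefSeq gene order several of these genes are neighbours: Prelp lies next to Fmod, Dcn next to Lum with Kera between Lum and Epyc, and Omd lies between Aspn and Ogn. Keratocan, Kera, and osteomodulin, Omd, which are no members of the list, fell as well, by 5.03 ± 0.28 and 2.97 ± 0.27 in GMT and by 4.64 ± 0.25 and 2.82 ± 0.24 in NGMT cells.

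Of the 10 matrix glycoproteins, 6 fell and 2 rose in GMT cells, and 6 fell and 3 rose in NGMT cells. Cartilage oligomeric matrix protein, Comp, which bridges collagen fibrils, stood at 12.07, 11.98 and 12.10 in 0F, 8.79 and 8.74 in GMT and 9.61, 9.29 and 9.10 in NGMT cells. It fell 9.73-fold (-3.28 ± 0.18, adjusted p = 1.15e-13) and 6.57-fold (-2.72 ± 0.16, adjusted p = 4.35e-13). Periostin, Postn, a matricellular protein of activated fibroblasts, went from 12.94, 12.98 and 12.89 to 10.48 and 9.74 in GMT and to 11.39, 10.95 and 10.66 in NGMT cells. Its fall was 2.83 ± 0.18 (adjusted p = 1.79e-12) and 1.94 ± 0.16 (adjusted p = 2.15e-10), and the 2 GMT arrays were 0.74 apart and the NGMT arrays spanned 0.73.

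Matrilin 2, Matn2 (-1.82 ± 0.17 and -1.70 ± 0.15), Abi3bp (-0.90 ± 0.07 and -0.77 ± 0.07), thrombospondin 2, Thbs2 (-0.77 ± 0.11 and -0.56 ± 0.10), and the collagen chaperone Sparc (-0.30 ± 0.03 and -0.25 ± 0.03) fell in both combinations. Thrombospondin 1, Thbs1, an activator of latent TGF-beta, went the other way from its paralog Thbs2 (0.74 ± 0.07 and 0.76 ± 0.06). Fibronectin, Fn1, rose by 0.18 ± 0.05 and 0.27 ± 0.04. Tenascin C, Tnc, gave 0.10 ± 0.14 in GMT and 0.42 ± 0.13 in NGMT cells, and the latter rise was lost without NGMT replicate 2 (adjusted p = 0.0825). The calcification inhibitor Mgp passed in neither.

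Versican, Vcan, the hyaluronan-binding proteoglycan of provisional matrix, rose by 0.81 ± 0.08 and 0.99 ± 0.07, and aggrecan, Acan, lay below the array median on all arrays of the 3 groups. Of the procollagen C-proteinase enhancers, Pcolce fell by 0.27 ± 0.06 and 0.27 ± 0.05. Pcolce2 rose by 0.77 ± 0.11 and 0.86 ± 0.10, from 0F signals of 6.53 to 6.80 that lie close to the array median.

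A wider list of 93 other matrix genes, 76 of them tested, gave 26 higher and 34 lower in GMT cells and 33 higher and 33 lower in NGMT cells. Over all genes tested, 34.2% were higher and 22.3% lower in GMT cells, and 34.9% and 23.3% in NGMT cells. Besides Kera, the furthest falls in GMT cells were those of Ecm2, a leucine-rich matrix protein (-4.34 ± 0.15), the fibulin-7 gene Fbln7 (-3.55 ± 0.25), hemicentin 1, Hmcn1 (-3.55 ± 0.22), and Smoc1 (-3.33 ± 0.32). Of 11 integrins and TGF-beta ligands tested, 9 rose and 0 fell in GMT cells in limma (9 rose and 0 fell also at an unadjusted p under 0.05), with the TGF-beta-activating integrin chain Itgb8 at 2.79 ± 0.10.

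Markers of other cell types moved with these differences. Of the 6 adipocyte markers measured, 6 fell in GMT cells, and the log2 of their summed signal was 15.0 on the 0F arrays, 10.6 to 10.8 in GMT and 10.7 to 11.2 in NGMT cells, where Adipoq, Car3 and Retn lay below the array median on every array. Of 7 macrophage markers 6 fell, from a summed 12.2 to 12.7 in 0F to 10.1 to 10.3 in GMT and 9.94 to 10.1 in NGMT cells, with Lyz2, C1qa, C1qb and Adgre1 below the median there. Of 7 mesothelial markers 6 rose, from 9.15 to 9.33 in 0F to 13.1 in GMT and 13.3 in NGMT cells. Of the 8 fibroblast markers 6 fell and 2 rose, with a median of -0.50. Of 8 cardiomyocyte markers 6 rose, from 9.40 to 9.52 up to 13.3 to 13.5 in GMT and 13.4 to 13.5 in NGMT cells, with Myh6 and Myh7 below the median throughout set 1. Their part in the matrix differences was not tested, and in RNA of whole cultures fewer cells of a type and less RNA per cell cannot be told apart.

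**Figure D2:**
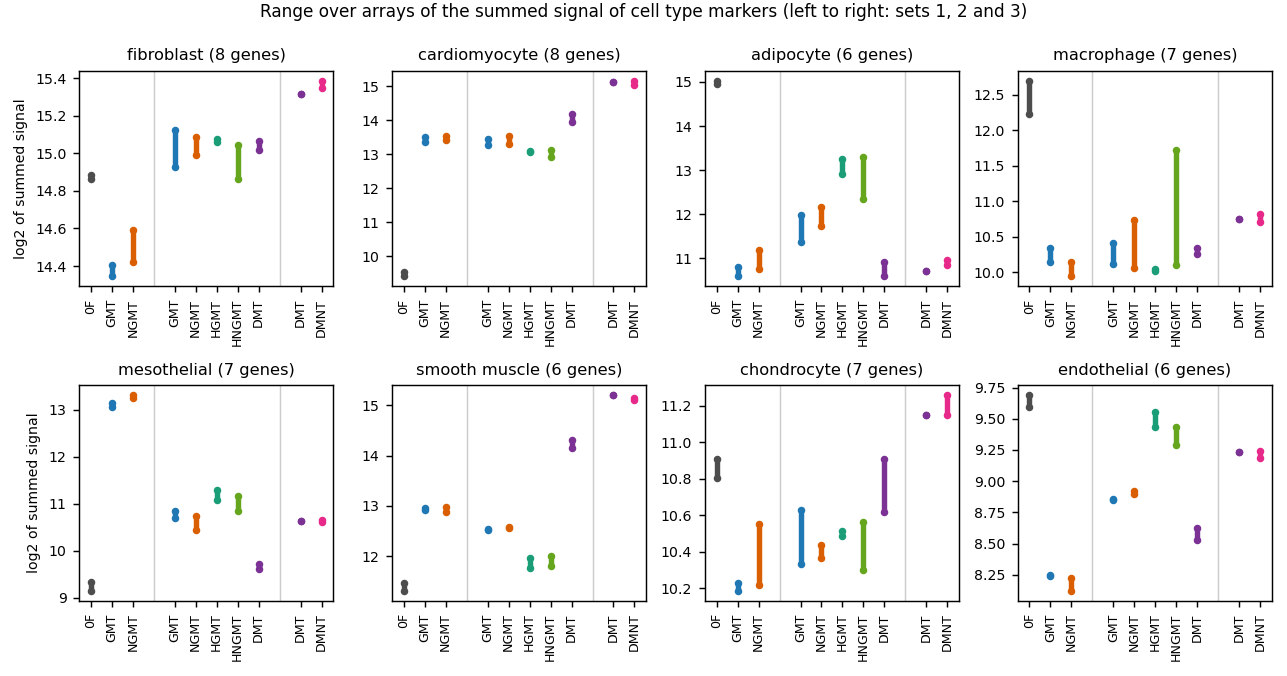
Log2 of the summed signal of 8 marker lists, shown as the range over the arrays of each group, with sets 1, 2 and 3 from left to right. The adipocyte sum is 15.0 in 0F cells and higher in HGMT and HNGMT (up to 13.3) than in GMT cells of set 2 (up to 12.0), and the smooth muscle sum is highest in DMT and DMNT cells.

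HGMT, HNGMT, DMT and DMNT share no array set with 0F. Their comparison with it ran over the combinations that both sets 1 and 2 hold, GMT and NGMT (and, for DMNT, over the single array of DMT replicate 4), which assumes an additive difference between sets. As a check, the arrays were also quantile normalized and subtracted directly, with the sets ignored. With the additive fit 12 members rose and 19 fell in HGMT (29.9% and 21.2% of all genes), 11 and 22 in HNGMT (26.5% and 23.2%), 12 and 22 in DMT (34.6% and 21.8%) and 10 and 19 in DMNT cells (26.4% and 15%). By both calculations 12 members rose and 12 fell in HGMT (18.8% and 15.3% of all genes did), 11 and 15 in HNGMT (16% and 16.6%), 12 and 21 in DMT (23.6% and 17.2%) and 10 and 18 in DMNT cells (19.2% and 12.8%). All 6 comparisons share the 0F arrays.

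The values of 4 members are set side by side here, and since the 0F arrays are the same in each comparison their likeness shows nothing further. Across the 4 combinations outside set 1 the additive difference of Eln lay between -3.43 and -3.06 and the direct difference between -2.80 and -2.34. For Mfap4 these ranges were -4.95 to -4.17 and -4.33 to -3.63, and for Efemp1 1.21 to 1.56 and 1.12 to 1.54. For Pcolce2 they were 0.59 to 4.07 and 1.36 to 4.48.

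For some members the calculation decided the result. Epyc in HGMT cells was -1.73 ± 0.36 by the additive fit and 0.16 ± 0.63 by the direct difference, and Comp was -1.53 ± 0.20 and -0.16 ± 0.43. No level against 0F is therefore given for them in the Hand2 combinations. Between GMT arrays of set 2 and of set 1, after quantile normalization, 25 of 40 members were higher and 4 lower (25.8% and 30.9% of all genes), with Epyc at 2.88 ± 0.16, Comp at 1.59 ± 0.18, Ltbp2 at 1.56 ± 0.15, Postn at 1.54 ± 0.18 and Mgp at 1.20 ± 0.05. For NGMT arrays 22 were higher and 5 lower (27.3% and 31.6%). Marker sums differed between the sets as well: in GMT cells the mesothelial sum was 13.1 in set 1 and 10.7 to 10.9 in set 2, the fibroblast sum 14.3 to 14.4 and 14.9 to 15.1, and the adipocyte sum 10.6 to 10.8 and 11.4 to 12.0. Their part was not tested. The labels give these arrays the same combination, and set and any difference between the cultures cannot be told apart.

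**Figure D3:**
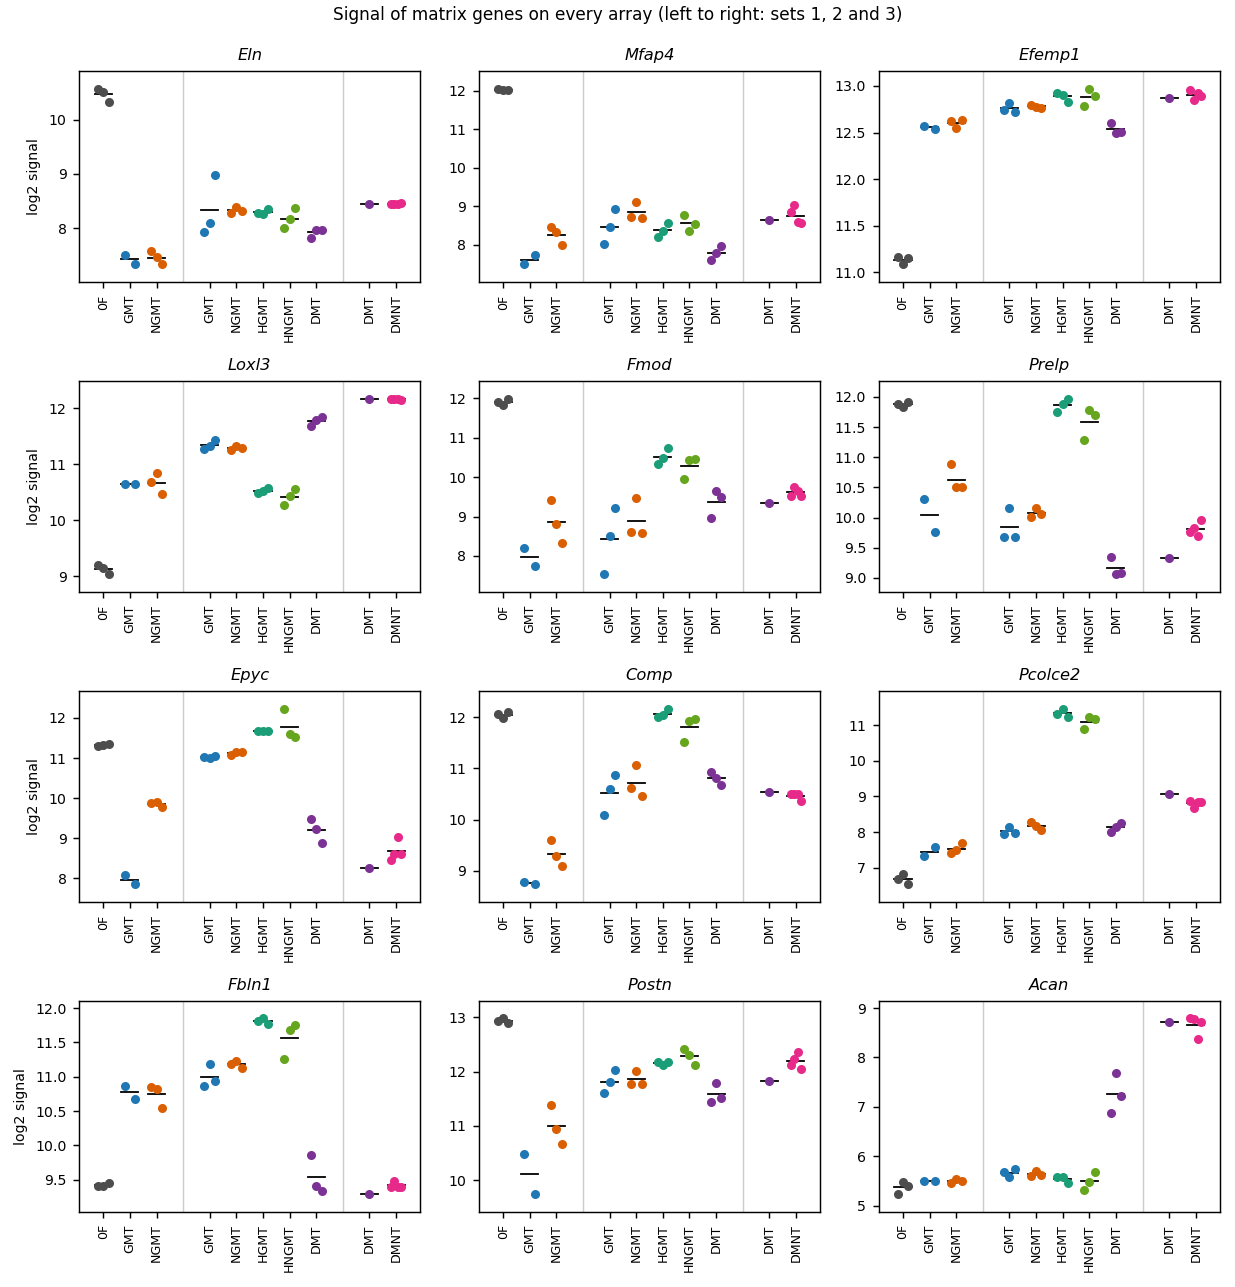
Log2 signal of 12 matrix genes on each of the 28 arrays by group, with sets 1, 2 and 3 from left to right divided by grey lines; black bars are group means within a set. Eln and Mfap4 are highest on the 0F arrays, Pcolce2 on the HGMT and HNGMT arrays and Acan on the DMT and DMNT arrays, and Epyc differs between GMT arrays of sets 1 and 2.

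Adding NKX2.5 to GMT raised some matrix genes in set 1 and gave no called member in set 2. In set 1, with 3 NGMT and 2 GMT arrays, 7 members were higher and 0 lower. Over all genes 2.31% were higher and 2.39% lower by limma. At an unadjusted p under 0.05, 19 members were higher and 0 lower, where 13.4% of all genes passed in either direction. The 7 called members were Epyc (1.89 ± 0.16, adjusted p = 1.36e-07), Postn (0.89 ± 0.18), Mfap5 (0.63 ± 0.18), Mfap2 (0.61 ± 0.09), Prelp (0.59 ± 0.16), Ltbp2 (0.59 ± 0.15) and Loxl1 (0.35 ± 0.09). The count rested on single arrays: it was 2 without GMT replicate 2, 3 without NGMT replicate 1 and 14 without NGMT replicate 3. Epyc and Mfap2 kept their call with any 1 array left out. An additive set term in place of separate means estimates 1 NKX2.5 difference over sets 1 and 2 together. With it the count was 3, and the difference of Epyc was 0.90 (adjusted p = 0.0303).

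In set 2, with 3 arrays each, 0 of 40 members were called in limma, and 0.0328% of all genes were. At an unadjusted p under 0.05, 4 members were higher, where 3.01% of all genes passed in either direction. The 95% intervals of the members had half-widths of 0.21 at the median and 0.64 at most. Epyc gave 11.03, 11.00 and 11.04 in GMT and 11.08, 11.16 and 11.16 in NGMT cells, where set 1 gave 8.07 and 7.86 against 9.87, 9.91 and 9.79. The difference of the NKX2.5 differences between sets was tested in the same fit and was called for 1 member (0.639% of all genes), Epyc (-1.79 ± 0.22, adjusted p = 8.14e-05). It was 2 members without GMT replicate 1 and 4 without NGMT replicate 3.

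Hand2 is a basic helix-loop-helix transcription factor, and its addition to GMT and to NGMT was compared within set 2. Against GMT, HGMT cells had 15 members higher and 4 lower, where 11.2% of all genes were higher and 12.7% lower. Against NGMT, HNGMT cells had 10 members higher and 11 lower, where 7.67% and 20.9% of all genes were. The rises were led by Pcolce2, an enhancer of procollagen processing, the collagen-binding proteoglycans Fmod and Prelp, and Comp, and the falls by Loxl3, Thbs2 and Tnc. These comparisons share no arrays.

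Pcolce2 gave 7.95, 8.15 and 7.97 on the GMT arrays and 11.31, 11.48 and 11.25 on the HGMT arrays, and 8.28, 8.16 and 8.04 on the NGMT arrays and 10.90, 11.24 and 11.19 on the HNGMT arrays. The arrays with Hand2 all lay far above those without. Pcolce2 rose 10.0-fold in HGMT (3.32 ± 0.10, adjusted p = 3.37e-17) and 7.72-fold in HNGMT cells (2.95 ± 0.10, adjusted p = 4.2e-16). Its relative Pcolce gave 0.13 ± 0.05 (adjusted p = 0.066) and -0.01 ± 0.05 (adjusted p = 0.881). Prelp went from 9.68, 10.16 and 9.67 in GMT to 11.76, 11.88 and 11.97 in HGMT, and from 10.01, 10.17 and 10.07 in NGMT to 11.28, 11.78 and 11.69 in HNGMT cells. It rose by 2.03 ± 0.14 (adjusted p = 1.73e-10) and 1.51 ± 0.14 (adjusted p = 4.01e-08). Fmod, the neighbour of Prelp in the genome, rose by 2.10 ± 0.31 (adjusted p = 1.85e-05) and 1.40 ± 0.31 (adjusted p = 0.00181), with wider spread: 7.54, 8.50 and 9.23 in GMT, 10.33, 10.49 and 10.74 in HGMT, 8.61, 9.47 and 8.59 in NGMT and 9.96, 10.44 and 10.47 in HNGMT cells. Even so, the arrays with and without Hand2 did not overlap.

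The promoters of these 3 genes are shown because, of the 40 members, they rose furthest with a factor that, as a class, binds the E-box CANNTG. They run from 250 bases before to 50 bases after the annotated start (RefSeq, GRCm38.p6), 5′ to 3′ on the strand of the gene, with each match to CANNTG in capitals. Pcolce2 is chr9:95637378-95637677 on the plus strand, Prelp is chr1:133921352-133921651 on the minus strand and Fmod is chr1:134037004-134037303 on the plus strand.
Pcolce2: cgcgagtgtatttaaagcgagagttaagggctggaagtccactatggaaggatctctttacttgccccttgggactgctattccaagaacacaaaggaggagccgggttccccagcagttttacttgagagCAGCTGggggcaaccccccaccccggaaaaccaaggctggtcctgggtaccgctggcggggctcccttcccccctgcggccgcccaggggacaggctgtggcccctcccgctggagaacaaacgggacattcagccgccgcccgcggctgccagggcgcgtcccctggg
Prelp: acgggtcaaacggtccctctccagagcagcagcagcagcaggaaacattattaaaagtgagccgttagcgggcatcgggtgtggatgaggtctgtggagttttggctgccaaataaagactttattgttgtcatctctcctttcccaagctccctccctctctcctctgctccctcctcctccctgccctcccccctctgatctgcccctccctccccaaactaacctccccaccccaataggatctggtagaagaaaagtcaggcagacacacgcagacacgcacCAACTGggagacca
Fmod: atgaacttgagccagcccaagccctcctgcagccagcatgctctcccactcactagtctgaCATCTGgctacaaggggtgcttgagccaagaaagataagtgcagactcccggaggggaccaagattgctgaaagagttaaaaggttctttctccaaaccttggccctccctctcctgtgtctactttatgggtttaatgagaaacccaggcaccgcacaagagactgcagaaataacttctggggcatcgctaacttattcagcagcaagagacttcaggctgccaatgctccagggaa
Each window holds 1 match. A match is common: 72.3% of all 32841 promoters of this length in the table hold a CANNTG, as do 29 of the 38 promoters found for 27 of the members (76.3%). The motif reads the same on both strands, and a match is a description and not a site of binding.

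Comp, which had been low in GMT cells of set 1, gave 10.09, 10.60 and 10.86 in GMT and 11.99, 12.04 and 12.17 in HGMT, and 10.61, 11.07 and 10.47 in NGMT and 11.52, 11.93 and 11.96 in HNGMT cells. It rose by 1.55 ± 0.16 (adjusted p = 9.39e-08) and 1.09 ± 0.16 (adjusted p = 2.13e-05) with no overlap of arrays. Fbln1 rose by 0.81 ± 0.12 (adjusted p = 1.65e-05) in HGMT cells and by 0.38 ± 0.12 (adjusted p = 0.0212) in HNGMT cells. The latter call was lost with NGMT replicate 4 or 6 or HNGMT replicate 2 or 3 left out (adjusted p = 0.0516 to 0.0893). Epyc (0.64 ± 0.15 and 0.65 ± 0.15), Ogn (0.55 ± 0.15 and 0.48 ± 0.15) and Dcn (0.30 ± 0.05 and 0.23 ± 0.05), like Fmod and Prelp members of the leucine-rich family, rose in both, as did Mgp (0.21 ± 0.04 and 0.19 ± 0.04). Postn rose in HNGMT cells by 0.42 ± 0.16 (adjusted p = 0.049) and gave 0.35 ± 0.16 (adjusted p = 0.123) in HGMT cells; the former call was lost with any 1 of 4 arrays left out (adjusted p up to 0.148). The call of Ogn in HNGMT cells was lost without NGMT replicate 4 or 6 or HNGMT replicate 1 (adjusted p up to 0.142).

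Of the 8 small leucine-rich proteoglycans, 5 rose and 0 fell in HGMT (limma; 6 higher and 0 lower at an unadjusted p under 0.05), and 5 rose and 1 fell, Bgn (-0.11 ± 0.04), in HNGMT cells. Of the 6 measured elastin and microfibril genes, 2 rose in HGMT and 0 were called in HNGMT cells (limma; 0 also at an unadjusted p under 0.05). Eln gave -0.04 ± 0.16 (adjusted p = 0.907, 95% interval -0.36 to 0.29) in HGMT and -0.15 ± 0.16 (adjusted p = 0.499) in HNGMT cells. Mfap4 gave -0.08 ± 0.18 and -0.28 ± 0.18, and Fbln5 0.09 ± 0.08 and -0.03 ± 0.08. In HGMT cells Emilin1 (0.41 ± 0.10), Mfap2 (0.31 ± 0.08), Ltbp1 (0.21 ± 0.07), Sparc (0.14 ± 0.03), Fn1 (0.13 ± 0.04) and Efemp1 (0.12 ± 0.04) rose too. The calls of Ltbp1, Fn1 and Efemp1 were each lost with at least 1 array left out (adjusted p of 0.0643 to 0.0805, 0.084 to 0.181 and 0.106 to 0.128).

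Among the falls, Loxl3 stood at 11.27, 11.32 and 11.43 in GMT and 10.48, 10.52 and 10.58 in HGMT, and at 11.26, 11.32 and 11.29 in NGMT and 10.27, 10.44 and 10.55 in HNGMT cells. It fell by 0.82 ± 0.07 (adjusted p = 8.46e-09) and 0.87 ± 0.07 (adjusted p = 4.41e-09), and no array with Hand2 reached one without. Thbs2, a matricellular inhibitor of angiogenesis, fell by 0.69 ± 0.10 and 0.65 ± 0.10. Tnc, an adhesion-modulating glycoprotein of remodelling tissue, fell by 0.55 ± 0.13 and 0.64 ± 0.13, and Lox by 0.23 ± 0.06 and 0.30 ± 0.06. The call of Lox in HGMT cells was lost without GMT replicate 4 or 5 (adjusted p = 0.0557 and 0.0565). In HNGMT cells Ltbp4 (-0.55 ± 0.11), Ltbp2 (-0.44 ± 0.13), Loxl4 (-0.40 ± 0.10), Ltbp3 (-0.30 ± 0.10), Fbln2 (-0.30 ± 0.09) and Thbs1 (-0.18 ± 0.06) fell as well.

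HNGMT replicate 1 stood apart in several of these genes. Ltbp3 gave 10.54, 11.12 and 11.18 on HNGMT replicates 1 to 3, and Ltbp2 gave 10.47, 11.15 and 11.17, with replicate 1 the low one in both. Without replicate 1, 11 members were higher and 6 lower, and the calls of Ltbp2 (adjusted p = 0.126), Ltbp3 (0.22), Fbln2 (0.119), Thbs1 (0.227) and Bgn (0.263) were lost. Epyc was high on replicate 1 (12.24, 11.59 and 11.51 on replicates 1 to 3), and without it the rise of Epyc was 0.42 (adjusted p = 0.0152). Under an additive set term it was 0.26 (adjusted p = 0.5). The calls of Ltbp4 (-0.35, adjusted p = 0.00458) and Loxl4 (-0.23, adjusted p = 0.0247) held. Ltbp4 gave 7.45 on replicate 1 and 8.03 and 8.06 on replicates 2 and 3. The summed adipocyte signal was also higher on replicate 1, at 13.3 against 12.6 and 12.3 on replicates 2 and 3, and the summed fibroblast signal lower, at 14.9 against 15.0 on both. Ltbp2, Fbln2, Ltbp3, Thbs1 and Bgn each lost their call with at least 1 NGMT array left out as well (adjusted p = 0.0506 to 0.153).

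**Figure D4:**
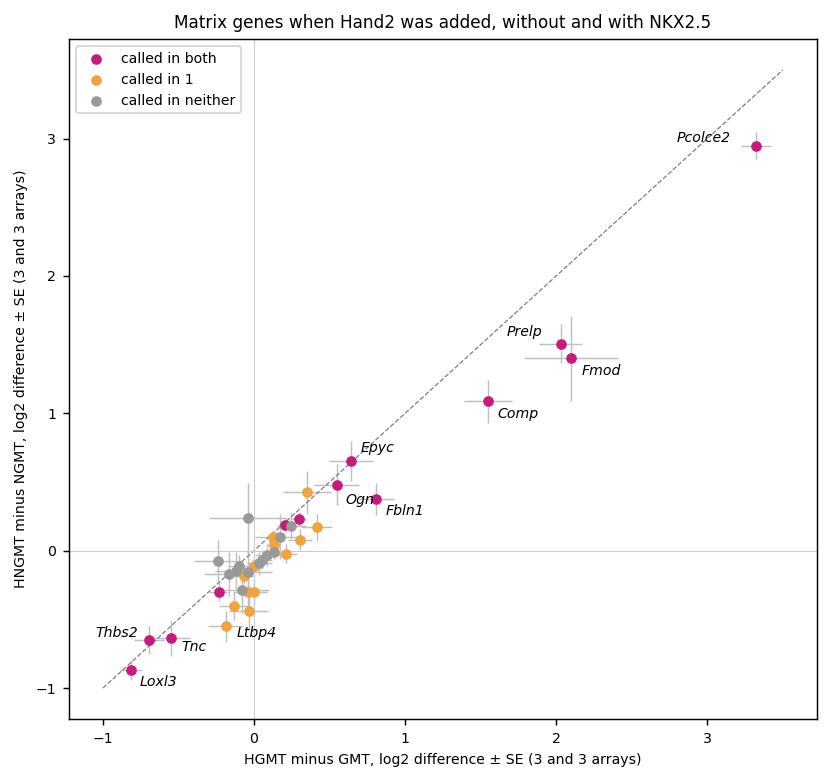
Log2 difference ± standard error of the 40 members on adding Hand2 without NKX2.5 (horizontal, HGMT minus GMT) and with it (vertical, HNGMT minus NGMT); the dashed line marks equal differences. Pcolce2 lies at 3.32 and 2.95, Prelp, Fmod and Comp follow, and Loxl3, Thbs2 and Tnc are lowest on both axes.

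Of the members higher with Hand2, 9 were called in both backgrounds, 60% of the 15 in HGMT and 90% of the 10 in HNGMT cells. Of those lower, 4 were called in both (Lox, Loxl3, Thbs2 and Tnc), 100% of the 4 and 36.4% of the 11. Over all genes 51.8% and 75.3% of the rises and 75.9% and 46.2% of the falls were shared. Across the 40 members the differences in both backgrounds had a Pearson r of 0.97 (0.96 without Pcolce2), and across all genes 0.86. These are correlations across genes measured on the same arrays, and genes are not independent replicates.

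The test of whether the Hand2 difference itself depends on NKX2.5 called 0 members and 0 of all genes tested in limma. At an unadjusted p under 0.05 there were 7 members, beside 9.48% of all genes. All 7 had a smaller or more negative difference in the presence of NKX2.5, among them Prelp (-0.52), Fbln1 (-0.43) and Pcolce2 (-0.37). In each of the 7, HNGMT replicate 1 was the lowest HNGMT array. HNGMT and HGMT cells, compared directly, differed in 0 members, and 0.491% of all genes were called. At an unadjusted p under 0.05, 8 members were lower and 0 higher, where 25.4% of all genes passed in either direction. The count at an adjusted p under 0.05 was 9 without HNGMT replicate 3, 5 without HNGMT replicate 2 and 0 without HNGMT replicate 1.

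In the wider matrix list 23 of 76 tested genes rose and 16 fell in HGMT cells, and 15 rose and 23 fell in HNGMT cells. Over all genes tested, 11.2% rose and 12.7% fell in HGMT cells, and 7.67% and 20.9% in HNGMT cells. The cell surface proteoglycan glypican 3, Gpc3 (3.16 ± 0.09 and 3.23 ± 0.09), the basement membrane protein Frem1 (2.41 ± 0.14 and 2.15 ± 0.14), the integrin chain Itga8 (1.91 ± 0.10 and 1.86 ± 0.10) and its ligand nephronectin, Npnt (1.52 ± 0.13 and 1.20 ± 0.13), rose in both. Kera, the keratan sulfate proteoglycan that lies beside Epyc, rose by 1.09 ± 0.25 and 0.94 ± 0.25. The gelatinase Mmp9 (-2.44 ± 0.38 and -1.89 ± 0.38) and the integrin chain Itgb3 (-1.05 ± 0.09 and -1.09 ± 0.09) fell.

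Several marker lists moved with Hand2. Of the adipocyte markers, all 6 measured were higher in HGMT and 4 of 6 in HNGMT cells, and their summed log2 signal was 11.4 to 12.0 in GMT, 12.9 to 13.3 in HGMT, 11.7 to 12.2 in NGMT and 12.3 to 13.3 in HNGMT cells. The 3 endothelial markers tested of 6 rose in both, from a sum of 8.85 to 8.86 in GMT to 9.44 to 9.56 in HGMT and from 8.90 to 8.92 in NGMT to 9.29 to 9.43 in HNGMT cells, with Pecam1, Kdr and Emcn below the array median on all of these arrays. Of the tested markers, Cdh5 lay below it on all GMT, NGMT and HNGMT arrays of set 2, and Tek on all GMT and NGMT arrays. Cdh5 lay above the median on the HGMT arrays alone, so it passed the signal filter only through the group where it is high. Its call as higher in HGMT cells is therefore no independent support, and its rise in HNGMT cells lies among signals below the median. Of the 8 fibroblast markers 0 were called in HGMT (limma; 1 was higher at an unadjusted p under 0.05; sum 14.9 to 15.1 in GMT and 15.1 in HGMT) and 1 fell in HNGMT cells. Of the 7 macrophage markers 3 rose and 0 fell in HNGMT cells (limma; 3 and 0 also at an unadjusted p under 0.05), with sums of 11.7, 11.3 and 10.1 on the HNGMT arrays and 10.7, 10.1 and 10.4 on the NGMT arrays of set 2. Of the 6 smooth muscle markers 1 rose and 2 fell in each background, and their sum was 12.5 in GMT and 11.8 to 12.0 in HGMT, and 12.6 in NGMT and 11.8 to 12.0 in HNGMT cells. Of the 7 mesothelial markers 3 rose and 2 fell in each, with sums of 10.7 to 10.9 in GMT, 11.1 to 11.3 in HGMT, 10.4 to 10.7 in NGMT and 10.8 to 11.2 in HNGMT cells. Of the 8 cardiomyocyte markers 1 rose and 3 fell in HGMT, and 1 rose and 2 fell in HNGMT cells, with sums of 13.3 to 13.5 in GMT, 13.1 in HGMT, 13.3 to 13.5 in NGMT and 12.9 to 13.1 in HNGMT cells. Their part in the matrix differences was not tested.

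MYOCD (myocardin), a coactivator of serum response factor, stands in place of GATA4 in DMT cells. Against GMT in set 2, 7 members were higher and 9 lower in DMT cells, where 9.11% of all genes were higher and 8.15% lower. The rises were led by Acan, the large aggregating proteoglycan of cartilage, and the falls by Epyc and Fbln1. The lysyl oxidase-like genes Loxl3 and Loxl4 rose, and of the 6 elastin and microfibril genes 1 was higher, 2 were lower and 3 did not pass.

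Acan gave 6.87, 7.69 and 7.22 on the DMT arrays of set 2 and 5.68, 5.58 and 5.73 on the GMT arrays, 3.02-fold higher (1.60 ± 0.14, adjusted p = 3.59e-09). In set 3 it stood at 8.72 on the DMT array and at 8.79, 8.78, 8.37 and 8.72 in DMNT cells. These 8 arrays of DMT and DMNT cells are the only ones of 28 on which Acan lay above the array median, so its signal elsewhere may be background and the fold is not exact. Acan thus passed the signal filter of at least 3 arrays only through the groups where it is high. Its call as higher in DMT cells is therefore no independent support, and DMT replicate 1 (6.871) lay barely above its array median (6.8707). The 7 chondrocyte markers had a summed signal of 10.6 to 10.9 in DMT and 10.3 to 10.6 in GMT cells of set 2. Of the 4 tested 1 rose, the link protein gene Hapln1 (1.00 ± 0.16), and Col9a1, Matn1 and Matn3 lay below the array median on all arrays.

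Epyc stood at 9.47, 9.23 and 8.89 in DMT against 11.03, 11.00 and 11.04 in GMT cells, a fall of 1.83 ± 0.15 (adjusted p = 1.35e-09). Fbln1 stood at 9.87, 9.41 and 9.33 against 10.87, 11.19 and 10.94, a fall of 1.47 ± 0.12 (adjusted p = 1.63e-09). In neither gene did the arrays overlap. Prelp fell by 0.68 ± 0.14 and its neighbour Fmod went the other way, with a rise of 0.95 ± 0.31 (adjusted p = 0.0356) on overlapping arrays (8.97, 9.64 and 9.51 against 7.54, 8.50 and 9.23). Without GMT replicate 3 the Fmod difference was 0.51 (adjusted p = 0.305), and it also lost its call with DMT replicate 2, DMT replicate 3 or GMT replicate 4 left out (adjusted p = 0.0705 to 0.148).

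Of the other falls, Mfap4 (-0.68 ± 0.18, but -0.45 with an adjusted p of 0.0738 without GMT replicate 5), Ltbp4 (-0.61 ± 0.11), Vcan (-0.47 ± 0.07), Mfap2 (-0.45 ± 0.08), Efemp1 (-0.23 ± 0.04) and Dcn (-0.22 ± 0.05) passed. Eln gave 7.82, 7.96 and 7.97 in DMT and 7.93, 8.09 and 8.97 in GMT cells, a difference of -0.41 ± 0.16 that did not pass (adjusted p = 0.081). The arrays overlap, and GMT replicate 5 is the high one. The other rises were Fbn2 (0.48 ± 0.16), Loxl4 (0.47 ± 0.10), Loxl3 (0.43 ± 0.07), Fbln5 (0.25 ± 0.08) and Thbs1 (0.25 ± 0.06). Those of Fbn2 and Fbln5 were lost with any of several arrays left out (adjusted p up to 0.204 and 0.161).

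**Figure D5:**
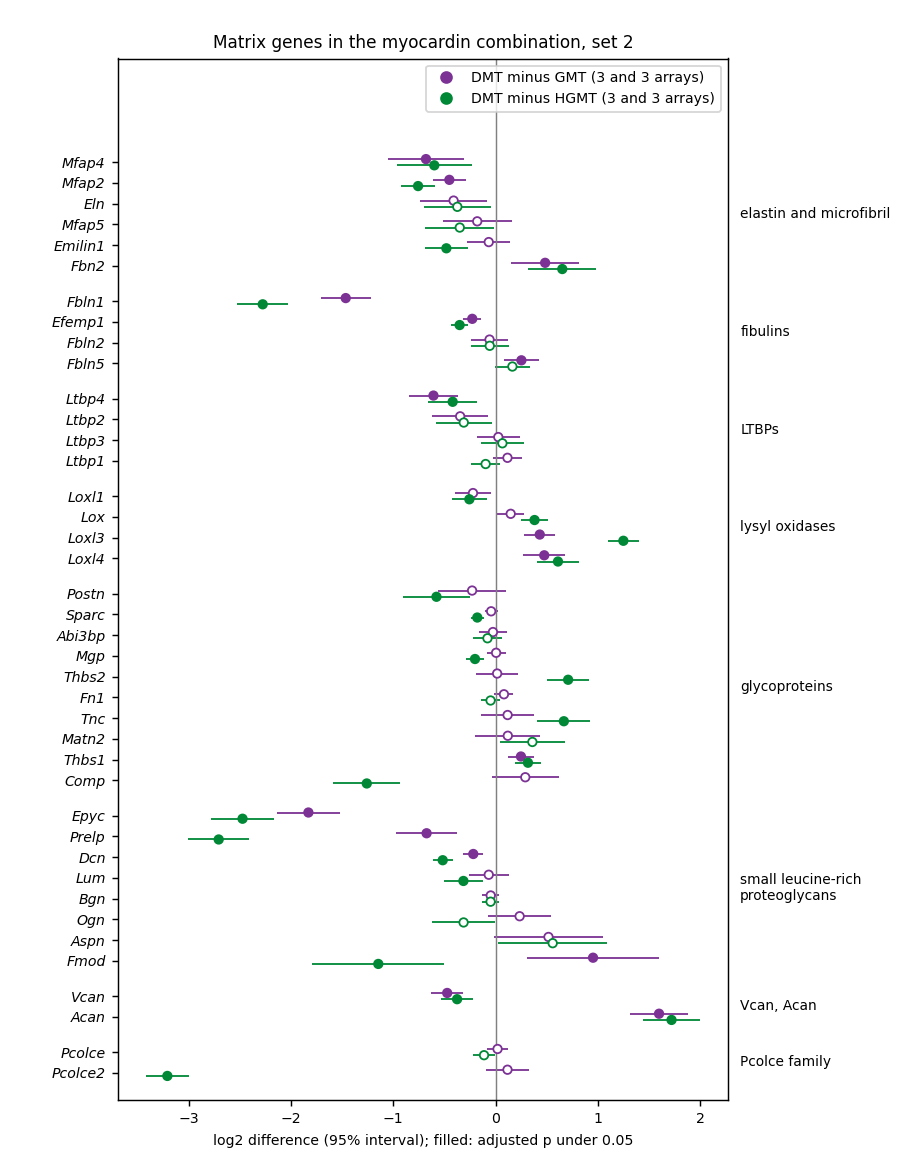
Log2 difference of the 40 members in DMT cells from GMT (purple) and from HGMT cells (green) of set 2, grouped by role. Bars are 95% intervals and filled points passed an adjusted p of 0.05; Acan is higher against both (1.60 and 1.72), Epyc and Fbln1 are lower against both, and Pcolce2 differs from HGMT (-3.21) but not detectably from GMT cells (0.12).

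Against HGMT cells, which carry Hand2 and GATA4 where DMT cells carry MYOCD, 8 members were higher and 18 lower in DMT cells, where 20.7% of all genes were higher and 15.9% lower. The same 3 DMT arrays enter this comparison, and the HGMT arrays are those already set against GMT. Pcolce2 was 9.24-fold lower (-3.21 ± 0.10, adjusted p = 2.21e-17), at 8.00, 8.15 and 8.26 against 11.31, 11.48 and 11.25. Prelp (-2.71 ± 0.14), Epyc (-2.47 ± 0.15), Fbln1 (-2.28 ± 0.12), Comp (-1.26 ± 0.16) and Fmod (-1.15 ± 0.31) followed. Acan (1.72 ± 0.14), Loxl3 (1.25 ± 0.07), Thbs2 (0.71 ± 0.10), Tnc (0.67 ± 0.13), Fbn2 (0.65 ± 0.16), Loxl4 (0.61 ± 0.10), Lox (0.38 ± 0.06) and Thbs1 (0.31 ± 0.06) were higher. Of the lysyl oxidases measured, 3 of 4 were thus higher and Loxl1 was lower (-0.26 ± 0.08, lost without DMT replicate 3 or HGMT replicate 2).

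In the wider list 17 of 76 genes rose and 22 fell in DMT against GMT cells, and 24 rose and 27 fell against HGMT cells. Over all genes tested, 9.11% rose and 8.15% fell against GMT cells, and 20.7% and 15.9% against HGMT cells. The integrin chain Itga8 (1.88 ± 0.10) and the ligand Tgfb3 (0.82 ± 0.07) rose against GMT, as did the Sparc relative Sparcl1 (1.05 ± 0.16). Transforming growth factor beta-induced protein, Tgfbi (-1.22 ± 0.16), serglycin, Srgn (-1.26 ± 0.20), and the hyaluronan synthase Has2 (-1.21 ± 0.13) fell.

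Smooth muscle markers were higher in DMT than in GMT cells, where the gain of MYOCD and the loss of GATA4 cannot be told apart. Of the 6, 5 rose, with sums of 14.1 to 14.3 against 12.5, and all 6 lay above the array median on every DMT array. Adipocyte markers were lower, 4 of 6, with sums of 10.6 to 10.9 against 11.4 to 12.0 and with Adipoq and Retn below the median in DMT cells. Mesothelial markers were lower, 4 of 7, with sums of 9.62 to 9.71 against 10.7 to 10.9. Against HGMT cells all 6 smooth muscle markers were higher (sums of 14.1 to 14.3 against 11.8 to 12.0), all 6 adipocyte markers lower (10.6 to 10.9 against 12.9 to 13.3), 5 of 7 mesothelial markers lower (9.62 to 9.71 against 11.1 to 11.3) and all 3 tested endothelial markers lower (8.53 to 8.62 against 9.44 to 9.56). Of the endothelial markers, Cdh5 passed the signal filter only through the HGMT arrays, so its call is no independent support. Of the cardiomyocyte markers 5 of 8 were higher and 2 lower against HGMT cells (13.9 to 14.2 against 13.1). Their part in the matrix differences was not tested.

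Adding NKX2.5 to DMT could be examined in set 3, where 4 DMNT arrays face the single array of DMT replicate 4, whose spread is assumed to equal that of the other groups. Of the 40 members 1 was called, Abi3bp, a matrix protein that binds collagen (0.0573% of all genes were higher and 0.00819% lower). It gave 12.30, 12.43, 12.48 and 12.18 in DMNT cells and 11.82 on the DMT array, a rise of 0.52 ± 0.09 (adjusted p = 0.0191). The call was lost without DMNT replicate 2 (adjusted p = 0.0613), after quantile normalization (0.0613) and with arrays of the compared sets alone in the fit (0.173). Dcn, at 13.05, 13.05, 13.25 and 13.05 against 12.80, gave 0.31 ± 0.07 (adjusted p = 0.101). The half-width of the 95% interval was 0.28 at the median over members and reached 0.88. For members with wide intervals, a difference inside them was not detectable here.

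The DMNT values have a coarser grain than those of the other sets. Pairs of arrays of set 3 shared the identical value in 18% to 28.8% of probe sets, against 2.35% to 5.93% in set 1 and 0.0591% to 1.81% in set 2. Of the 40 members, 16 had the same value on at least 2 of the 4 DMNT arrays, and 2 had 1 value on all 4. The spread of DMNT arrays is therefore not comparable with that of the other groups.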

How the data were processed

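The authors deposited 1 matrix of log2 signal for 35556 probe sets on 28 arrays, with values from 3.76 to 14.5. That the scale is log2 was read from this range. MAS5 is the only tool named in the submitters' processing notes, and the sources used here give neither its version nor the summarization or scaling. Of the sample columns, 0 were left unused, and 0 pairs of arrays agreed in every value.

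Groups came from the labels. Array sets came from the distances between sorted values of arrays, which reached 0.0486 inside a set and were at least 0.135 between sets. The platform annotation gave 1 symbol to 21789 probe sets, several to 1621 and none to 12146, and probe sets with several were not used. Each gene took its probe set of highest mean, and 12211 of 19938 genes lay above the array median on at least 3 arrays and were tested. Promoter sequences are from RefSeq (GRCm38.p6).

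limma 3.58.1 in R 4.3.3 fitted 1 mean per group and set over all 28 arrays with a trended variance, and p-values were adjusted by Benjamini-Hochberg over the 12211 genes and called under 0.05. Combinations without a set in common with 0F were compared through an additive set term. The fit was tested on simulated data. Alternatives were quantile normalization, other filters, the mean of probe sets, no trend, a replicate block, the compared sets alone, an additive set term, the direct difference and leaving out each array. The difference between sets after quantile normalization was added after seeing the data.

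Members and lists were chosen with earlier results of these data known. Values by array are given for up to 6 called members with the largest rise and 6 with the largest fall in each comparison, and for paralogs or members of a role that differ in direction. Up to 3 genes per further matrix list and comparison are named, and Kera and Omd were named for their position after their values were seen.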

Additional observations from a re-analysis of the deposited data

Results flagged for a closer look

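In 11 of the 40 members, 1 of the 4 DMNT arrays lay far from the other three by Dixon's test at its 95% critical value for 4 samples. The ratio of the far array's gap to the whole range was 1.00 for Fbln1, Ltbp4 and Loxl3, 0.99 for Fn1, 0.984 for Dcn, 0.97 for Ltbp1, 0.926 for Pcolce2, 0.89 for Comp, 0.852 for Loxl4, 0.839 for Pcolce and 0.836 for Acan. Chance flags about 1 in 20 groups of values without ties, and that rate does not hold for the tied values here. Where 3 of the 4 arrays share a value, as in Fbln1, Ltbp4 and Loxl3, the ratio is 1.00 whatever the gap. The 2 members with 1 value on all 4 arrays, Ltbp2 and Thbs1, had no ratio. Of the 11 members, 9 had the same value on at least 2 of the 4 arrays, and the whole range of log2 signal was 0.0147 for Ltbp4 at the least and 0.418 for Acan at the most. The far array was not the same in each: it was DMNT replicate 2 for Fbln1 (9.48 against 9.40), replicate 3 for Ltbp4 (8.44 against 8.42) and replicate 4 for Loxl3 (12.15 against 12.17).

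The difference of Epyc between NGMT and GMT cells was not the same in sets 1 and 2, where set and any difference between the cultures cannot be told apart. The difference of the differences was -1.79 ± 0.22 by the interaction term in limma (adjusted p = 8.14e-05): all 3 NGMT arrays lay above both GMT arrays in set 1 by 1.89 on average, and the difference in set 2 was 0.10 ± 0.15.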

How the results depend on the processing

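Over the alternatives run, 225 of 285 called pairs of a member and a comparison kept their call in each, and 60 lost it in at least 1. With 1 array left out, the called members numbered 32 to 33 for GMT and 33 to 34 for NGMT against 0F, 2 to 14 for NGMT against GMT in set 1 and 0 to 0 in set 2, 16 to 19 for HGMT against GMT, 16 to 20 for HNGMT against NGMT, 0 to 9 for HNGMT against HGMT, 13 to 16 for DMT against GMT, 24 to 27 for DMT against HGMT, 0 to 1 for DMNT against DMT, 0 to 0 for the dependence of the Hand2 difference on NKX2.5, 1 to 4 for the dependence of the NKX2.5 difference on set, and, against 0F, 30 to 30 for HGMT, 31 to 34 for HNGMT, 33 to 35 for DMT and 28 to 30 for DMNT. An additive set term estimates 1 NKX2.5 difference over sets 1 and 2 together and gave 3 called members, where separate means gave 7 and 0. The single call of DMNT against DMT became 0 after quantile normalization, with a replicate block and with the compared sets alone. Of the 160 member differences from 0F of the 4 combinations outside set 1, 17 had another sign in the direct difference. Those among them that the additive fit had called were Epyc in HGMT (0.16) and HNGMT (0.22), Fbln2 in HNGMT (0.29) and DMNT (0.27) and Ltbp3 in HNGMT (0.053); the cause was not tested. Fbln2 in HGMT (0.49) and DMT (0.43) and Mgp in DMNT (0.87) changed sign and were called higher by the direct difference alone. The other alternatives, apart from the replicate block described below, kept each count within 1.5 times, and none moved the median of all genes by over 0.1.

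Arrays with the same replicate number showed no pairing. Deviations of 21 such pairs correlated at a median of 0.02 (-0.26 to 0.41), beside -0.02 (-0.41 to 0.41) for 90 pairs with different numbers. Pairs with different numbers reached 0.41, and a pairing that the numbers do not follow was not tested. HNGMT and NGMT arrays of set 2 share no number, so this check cannot show a pairing between them. GMT arrays of set 2 share only number 3 with the HGMT and DMT arrays of that set. In these 3 comparisons a block by number is partly confounded with the group. With the number as a replicate block, called members for HNGMT against NGMT went from 21 to 7 (5 higher, 2 lower), for HGMT against GMT from 19 to 14 and for DMT against GMT from 16 to 12, and for GMT against 0F they stayed at 33. No detection calls were used, so signals near or below the array median make the size of a fold uncertain. Such signals were those of Loxl4 in 0F cells and of Acan outside DMT and DMNT cells.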
